A study of Mus musculus with 34 samples.

Results

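The step of the mouse seminiferous epithelial cycle at which mature sperm are released was followed by comparing tubule segments of stages IX-XII with segments of stages VII-VIII. Both stage groups were taken in 2 arms, untreated tubules and tubules of testes that had received a control lentivirus, and all 8 arrays of these 4 groups were used, of 34 in the series. The untreated arm came from C57BL6/j mice of 6 to 8 weeks. The second arm, called Venus after the fluorescent protein that its virus carried, came from mice of the same strain and age whose testes were injected 5 days before dissection. No mutation, transgenic allele or drug was named for either arm, and the cell types that the virus entered were not stated in the sources used here. Each group held 2 arrays, described by the submitters as biological duplicates, with 1 RNA sample per array. The third stage group is called VII-VIII after its source label; its titles read VI-VIII, so tubules of stage VI may be among them. The other arrays, used further down for independent readouts, were tubules of stages I-III and IV-VI, tubules injected with a virus for dnRARa (a dominant negative retinoic acid receptor alpha), whole testes, FACS-sorted Sertoli cells of wild-type (WT) and of Nanos3-knockout testes, and cultured Sertoli cells given vehicle or retinoic acid (RA).

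Spermatogenesis runs in a fixed succession along the tubule, so that each stage holds a set combination of germ cells inside the Sertoli cells that nurse them. At stages VII-VIII the elongated spermatids reach the luminal edge and are released (spermiation), the excess cytoplasm that they shed is taken up by Sertoli cells as residual bodies, and preleptotene spermatocytes enter meiosis and pass the blood-testis barrier. Stages IX-XII hold no fully elongated spermatids; round spermatids begin to elongate and condense their nuclei, early spermatocytes pass through leptotene and zygotene, and the meiotic divisions take place at stage XII. Retinoic acid is known to act at several of these events. Since a tubule segment is a mixture of cells, more or fewer cells of a type and more or less RNA per cell cannot be told apart in any value below.

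All values are log2 signals relative to the 75th percentile of the same array, so that 0 is that percentile, and a probe is compared only with itself. Differences are stages IX-XII minus VII-VIII with the arm as a block, so 1 is a 2-fold rise, and errors on differences are standard errors (SE) of limma's fit. From 54.89% to 74.42% of the spots per array were well above background, the lowest being replicate 2 of untreated stages IX-XII. The recorded median local background was 0 on 31.98% to 36.49% of the spots of the untreated arrays and on none of the Venus arrays. The part of this in the results was not tested. The standard deviation of the difference between replicates over genes was 0.535 and 0.72 in untreated stages VII-VIII and IX-XII, and 0.324 and 0.285 in the Venus groups. The 4 untreated arrays lay on 1 slide, and each Venus replicate number had a slide of its own that carried both stage groups, so every stage difference can be read within a slide.

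A large share of the transcriptome differed between the 2 stage groups. Of 23277 genes tested, 5476 (23.5%) were higher at IX-XII and 5063 (21.8%) lower at an adjusted p under 0.05, 45.3% in all. A gene is said below to have risen or fallen only if it passed that threshold and, in each arm on its own, both arrays of one stage group lay above both arrays of the other in the same direction. Where arrays of such a gene are said below not to overlap, this restates the rule. By that rule 5244 genes rose (22.5%) and 4831 fell (20.8%), 43.3% together, while 464 genes past the threshold did not meet it in an arm. The changes were mostly moderate: 1283 of the risen and 1570 of the fallen genes reached 2-fold in each arm. In each arm, 217 and 473 reached 4-fold, and 14 and 18 reached 16-fold. The median difference over all genes tested was 0.0378. With another background correction (normexp on the median spot signal) the counts past the threshold were 1272 higher and 1083 lower; under it the standard deviation between replicates at VII-VIII and IX-XII was 0.729 and 0.441 in untreated and 0.991 and 1.15 in Venus tubules. The cause of the lower counts was not tested. Of the 104 genes named by a fixed rule that passed, 41 missed the threshold with normexp and 3 changed sign, with normexp p-values from 0.0504 upward. Those of the 41 that are given below without their normexp p are Ctsl, Piwil1, Orc1, Actl7a, Cldn12, Cldn13, Serpina5, Axl, Rubcn, Elovl2, Crabp1, Dhrs3, Acta2, Myh11, Vwf and H2-Eb1. Further list members named below are outside this rule, and their normexp values are not given singly. The normexp counts of their lists show that some of them lost the call too. Normexp called 0 tight junction genes in either direction and 0 flagellum genes higher, so the members of these 2 lists named as risen lost it.

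The 2 arms share no array and gave similar stage differences. Each arm had its own contrast in 1 model of the 4 groups. The arms thus shared an estimate of spread, and their counts are not independent. The untreated arm had 4036 genes higher (17.3%) and 4026 lower (17.3%), and the Venus arm 3413 (14.7%) and 3442 (14.8%). Of these, 5293 genes passed in both arms in the same direction, which is 65.7% of the untreated arm's 8062 and 77.2% of the Venus arm's 6855; 41 passed in opposite directions. Across genes, which are not independent replicates, the differences of the arms had a Pearson r of 0.79 and a Spearman rank correlation of 0.77. The stage difference itself differed between arms for 57 genes (0.245%) by the interaction contrast, and for 2363 at an unadjusted p under 0.05. The arms lay on different slides and scan days, so virus, slide and scan day cannot be told apart there. These counts per arm rest on 2 arrays a side, and each of the 8 arrays, left out in turn, moved at least 1 of them by more than 1.5 times. Over the 8 fits the untreated arm had 2248 to 6265 genes higher and 2211 to 5306 lower, the Venus arm 1130 to 5500 and 1387 to 5015, and the interaction 0 to 595 in favour of Venus and 0 to 567 in favour of untreated tubules. The highest of these values came without replicate 1 of untreated stages IX-XII, and those of the Venus arm without either replicate of that group. Without any 1 of the 4 Venus arrays the interaction called at most 1 gene. The joint counts moved less, from 4373 to 6023 higher and from 4176 to 5592 lower.

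**Figure D1:**
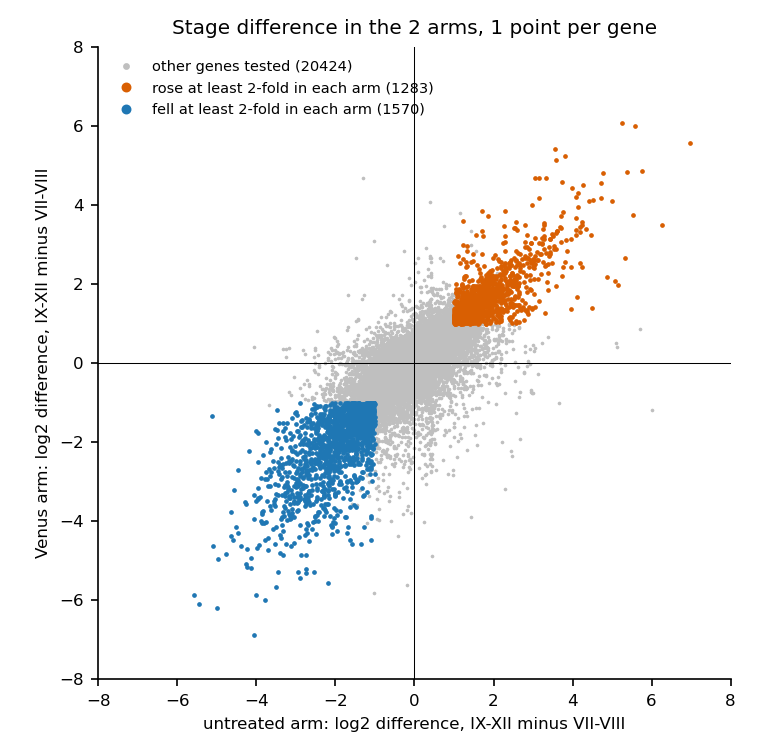
Each point is 1 of the genes tested, with its log2 difference between stages IX-XII and VII-VIII in untreated tubules on the x axis and in Venus tubules on the y axis. The 1283 genes that rose at least 2-fold in each arm (orange) and the 1570 that fell as much (blue) lie in opposite corners by the way they were chosen; the grey points are all others, and r over all genes was 0.79.

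The 12 largest rises and falls were taken among genes with a symbol that were above background on all 4 arrays of the higher stage group. Among the largest rises were a hormone co-receptor, developmental transcription factors and a repressor of the zinc-finger family. Kl, which encodes klotho, the co-receptor of fibroblast growth factor 23, read -7.67 and -7.15 at stages VII-VIII and -1.79 and -1.89 at IX-XII in untreated tubules, and -7.81 and -8.27 against -2.04 and -2.05 in Venus tubules. The IX-XII arrays stood far above the VII-VIII arrays in both arms, and Kl was not well above background on any VII-VIII array. It was therefore at least 17-fold higher at IX-XII (measured difference 5.78 ± 0.17 (SE), adjusted p = 1.34e-05). Each bound takes the dimmest signal still scored as above background on the dim arrays. Such bounds, here and below, hold for the main background correction and not for normexp. Lypd6b, a member of the LY6 family, was likewise below background on all 4 VII-VIII arrays and at -1.87 and -1.45 and at -2.46 and -2.38 on the IX-XII arrays of the untreated and Venus arms, at least 15.9-fold higher (5.66 ± 0.23 (SE), adjusted p = 1.94e-05). Chdh, the mitochondrial enzyme that oxidises choline, had the largest rise of all genes tested (6.27 ± 0.30 (SE), adjusted p = 2.58e-05). It read -7.19 and -6.61 at stages VII-VIII and -0.09 and 0.24 at IX-XII in untreated tubules, and -5.76 and -5.73 against -0.18 and -0.17 in Venus tubules, and only 2 of the 4 VII-VIII arrays were well above background, so this size is uncertain.

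Gfi1, a transcriptional repressor known from blood and neural development, was measured on all 8 arrays, at -4.37 and -3.14 before and 0.86 and 1.14 after the transition without virus, and -4.20 and -4.35 before and 0.60 and 0.50 after it with Venus. No IX-XII array came near a VII-VIII array, and the rise was 27.7-fold (4.79 ± 0.25 (SE), adjusted p = 2.94e-05). The homeobox gene Emx2, needed for the urogenital tract, read -4.47 and -4.21 (untreated) and -5.18 and -4.86 (Venus) at VII-VIII, against 0.08 and 0.29 and -0.90 and -0.88 at IX-XII (4.33 ± 0.14 (SE), adjusted p = 1.73e-05). The basic helix-loop-helix gene Helt rose by 4.39 ± 0.23, the p75 neurotrophin receptor gene Ngfr by 4.14 ± 0.16 and the guanine nucleotide exchange factor gene Arhgef39 by 4.45 ± 0.17, each with a difference over 4 in each arm. Alas2, Gm6583 and the homeobox gene Gsc were also among the 12 largest rises; Alas2 was above background on 2 and Gsc on 3 of the 4 VII-VIII arrays. Kl, Lypd6b and Emx2 did not pass the threshold with normexp (adjusted p 0.302, 0.481 and 0.0521), where their differences were 1.34, 1.10 and 2.05. The transcription factors Sox17 (3.48 ± 0.22), Sox7 (3.88 ± 0.34) and Snai2 (3.35 ± 0.27) also rose, and these 3 were picked for mention after their values were seen. Sox7 was above background on 2 of the 4 VII-VIII arrays, so the size of its rise is uncertain.

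**Figure D2:**
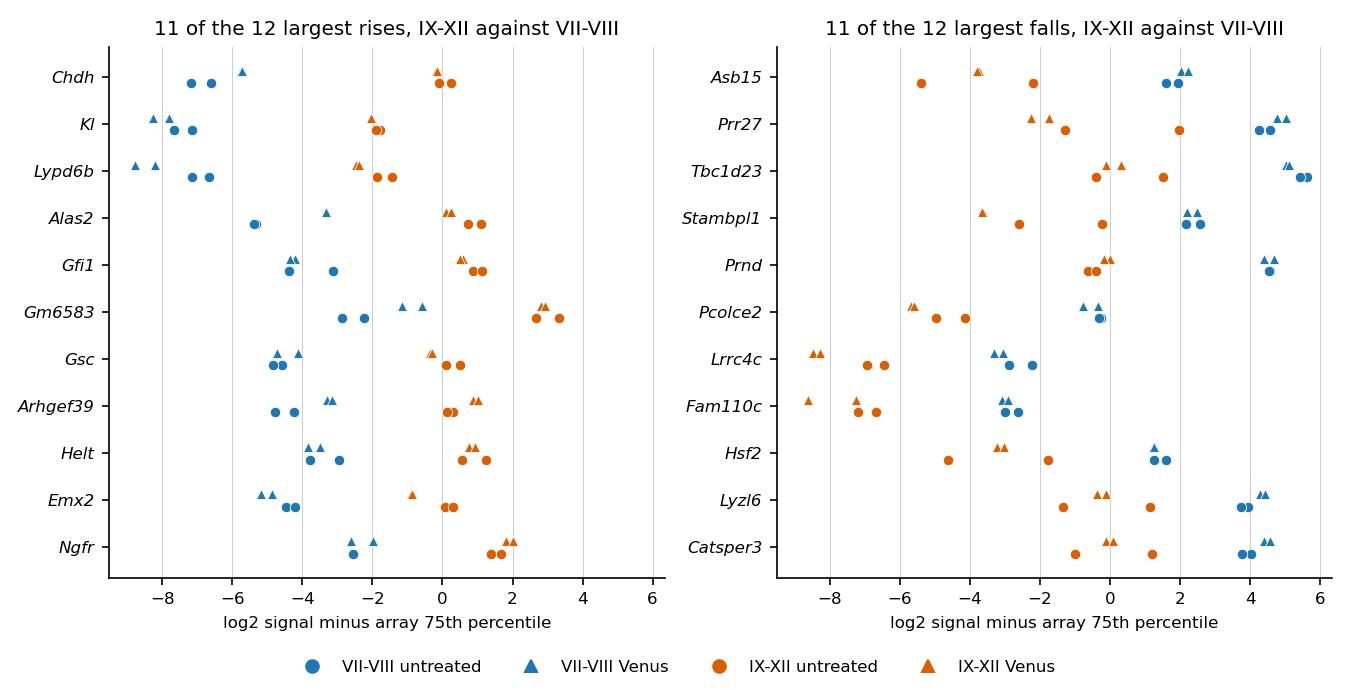
Log2 signal relative to the array's 75th percentile (x axis) for 11 of the 12 largest rises (left) and 11 of the 12 largest falls (right), 1 symbol per array; blue is VII-VIII, orange IX-XII, circles untreated and triangles Venus. In each gene the orange and blue symbols of an arm are apart by the way the genes were chosen. Among the falls 1 orange circle, replicate 1 of untreated IX-XII, often lies nearer to the blue ones, as for Asb15 at -2.19 and -5.41.

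The largest falls included genes known from spermatids and sperm. Asb15, an ankyrin repeat and SOCS box gene, read 1.93 and 1.61 at stages VII-VIII and -2.19 and -5.41 at IX-XII in untreated tubules, and 2.02 and 2.22 against -3.74 and -3.79 in Venus tubules. All 4 IX-XII arrays were below all VII-VIII arrays, by 53-fold in the fit (-5.73 ± 0.61 (SE), adjusted p = 0.000351), but the 2 untreated IX-XII arrays were far apart and 1 of the 4 IX-XII arrays was not above background, so this size is uncertain. Prnd, which encodes the prion-like protein doppel of testis and sperm, read 4.58 and 4.55 before and -0.63 and -0.41 after the transition without virus, and 4.41 and 4.68 before and -0.01 and -0.16 after it with Venus. Its arrays were close together within each group, and it fell by 5.09 in untreated and by 4.63 in Venus tubules (-4.86 ± 0.14 (SE), adjusted p = 1.09e-05). Catsper3, a subunit of the sperm calcium channel, was at 4.02 and 3.77 (untreated) and 4.40 and 4.58 (Venus) at VII-VIII, against 1.21 and -0.99 and -0.10 and 0.09 at IX-XII (-4.14 ± 0.44 (SE), adjusted p = 0.00036).

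Hsf2, a heat shock factor expressed in germ cells, read 1.61 and 1.27 at stages VII-VIII and -1.77 and -4.63 at IX-XII in untreated tubules, and 1.24 and 1.27 against -3.23 and -3.04 in Venus tubules, a fall of 22.8-fold (-4.51 ± 0.54 (SE), adjusted p = 0.000588). The groups did not overlap, and the IX-XII array of the lower untreated replicate was not above background. Tbc1d23 (-4.96), Stambpl1 (-4.89), Prr27 (-5.47), the sperm lysozyme-like gene Lyzl6 (-4.26) and Pcolce2 (-4.68) fell as well. Lrrc4c and Fam110c were not above background on any IX-XII array and were at least 6.83-fold and 6.63-fold lower. Neither passed with normexp (adjusted p 0.576 and 0.471), where their differences were only -0.95 and -1.07.

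The gap between the untreated IX-XII replicates was general among the fallen genes. Of the 1570 genes that fell at least 2-fold in each arm, 1096 (69.8%) were higher in replicate 1 than in replicate 2, with a median gap of 0.38. Of the 1283 genes that rose as much, 418 (32.6%) were, with a median gap of -0.23, against 40.5% of all genes tested. Replicate 1 thus lay nearer to the VII-VIII tubules in both sets. In the Venus arm 34.6% of the fallen genes were higher in replicate 1. The part of this gap in the results was not tested.

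Genes of cell division moved one way: 16 of the 20 tested rose and none fell, against 22.5% rising and 20.8% falling over all genes, with a median difference of 1.26. The kinase gene Aurkb, of the chromosomal passenger complex, read -3.66 and -3.26 at stages VII-VIII and 0.48 and 1.07 at IX-XII in untreated tubules, and -3.68 and -3.83 against -0.27 and -0.26 in Venus tubules, a 14.6-fold rise (3.86 ± 0.21 (SE), adjusted p = 3.28e-05). Ccnb3, a cyclin of meiotic cells, read -3.77 and -3.16 before and -0.70 and -0.64 after the transition without virus, and -4.28 and -4.19 before and -1.24 and -1.11 after it with Venus (2.93 ± 0.15 (SE), adjusted p = 2.79e-05; with normexp, adjusted p = 0.12). Both were separated by a wide gap in each arm. Plk1, the polo-like kinase of mitosis and meiosis, was at 1.83 and 1.76 (untreated) and 1.83 and 2.21 (Venus) at VII-VIII, against 5.36 and 5.72 and 4.39 and 4.53 at IX-XII (8.55-fold higher, SE on the log2 scale 0.27, adjusted p = 0.000163), and its rise was 3.75 in untreated and 2.44 in Venus tubules. The spindle kinase gene Aurka rose by 2.08 ± 0.15 and the cyclin-dependent kinase gene Cdk1 by 1.67 ± 0.11.

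Among the other risen members were the cyclin Ccnb1 (1.70 ± 0.23), the passenger protein gene Incenp (1.96 ± 0.20), the kinetochore motor Cenpe (1.77 ± 0.18), the separase gene Espl1 (1.64 ± 0.15) and the spindle protein gene Nusap1 (1.58 ± 0.15). Birc5, Pbk, Cdc20, Ttk, Top2a and Bub1b rose by 0.79 to 0.94. The 4 members that did not pass were Bub1 (0.40), Ccnb2 (0.43), Kif11 (0.03) and Ccna2 (-0.20). The list's median was 1.39 on the untreated slide and 1.00 and 1.06 on the Venus slides, its counts were 16 to 17 higher and 0 lower whichever array was left out, and normexp called 11 higher and 0 lower. At an unadjusted p under 0.05 limma gave 18 higher and 0 lower.

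The promoters of these genes are shown for the reason that members moving together are known from other cells to share cell-cycle elements: the CHR, with the letters TTTGAA, and the CCAAT box. Both strands of the 300-base RefSeq windows (build GRCm38.p6) around the transcription start were searched. The sequences below are those of division genes that rose by 2 or more, read 5′ to 3′ on the gene's strand, with both motifs in capitals; Plk1 is on the plus strand, Ccnb3 and Aurka on the minus strand. The window of Aurkb is not used here.
Plk1, chr7:122159185-122159484: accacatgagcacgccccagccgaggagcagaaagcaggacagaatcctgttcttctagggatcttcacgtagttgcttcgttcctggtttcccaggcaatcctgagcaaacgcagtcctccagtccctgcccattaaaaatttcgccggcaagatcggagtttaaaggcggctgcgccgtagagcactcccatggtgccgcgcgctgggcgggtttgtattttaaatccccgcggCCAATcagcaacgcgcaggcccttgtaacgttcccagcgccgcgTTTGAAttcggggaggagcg
Ccnb3, chrX:7041570-7041869: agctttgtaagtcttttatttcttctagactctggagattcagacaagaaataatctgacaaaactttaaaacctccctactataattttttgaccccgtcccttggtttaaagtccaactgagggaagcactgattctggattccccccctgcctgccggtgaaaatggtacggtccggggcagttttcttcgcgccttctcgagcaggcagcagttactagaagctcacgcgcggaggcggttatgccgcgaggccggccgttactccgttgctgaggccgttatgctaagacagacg
Aurka, chr2:172370521-172370820: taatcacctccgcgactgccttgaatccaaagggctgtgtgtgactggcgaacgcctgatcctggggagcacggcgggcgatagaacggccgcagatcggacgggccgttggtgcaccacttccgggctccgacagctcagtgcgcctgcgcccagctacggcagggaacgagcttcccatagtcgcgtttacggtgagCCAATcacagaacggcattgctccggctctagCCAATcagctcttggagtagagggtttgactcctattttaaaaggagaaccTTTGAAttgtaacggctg
Plk1 held 1 CHR and 1 CCAAT box, Aurka 1 and 2, and Ccnb3 neither. Of the 13 risen division genes with a window, 8 held the CHR (61.5%), 10 the CCAAT box (76.9%) and 8 both (61.5%). Over all 16 tested division genes with a window, those that did not rise included, the shares were 62.5%, 81.2% and 62.5%. Over the 11121 tested genes with a window the shares were 13.2%, 38.7% and 5.46%. A match is a description of these letters, and binding was not measured.

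Genes of meiotic entry and recombination were divided: 2 of 18 tested rose and 7 fell (11.1% and 38.9%, against 22.5% and 20.8% of all genes; median -0.30), and normexp called 1 higher and 4 lower. Stra8, which germ cells need to enter meiosis and which retinoic acid induces, read 5.46 and 5.62 at stages VII-VIII and 3.25 and 3.94 at IX-XII in untreated tubules, and 4.66 and 4.22 against 3.29 and 3.36 in Venus tubules. All VII-VIII arrays of an arm were above its IX-XII arrays, and the fall was -1.53 ± 0.23 (SE), adjusted p = 0.0016. Rec8, the meiotic cohesin subunit, fell from 4.65 and 4.14 (untreated) and 4.56 and 4.87 (Venus) to 2.70 and 2.34 and 1.62 and 1.67 (-2.47 ± 0.27 (SE), adjusted p = 0.000381). The recombination gene Msh4 (-1.68 ± 0.12 (SE), adjusted p = 8.33e-05), the synaptonemal complex gene Tex12 (-1.08) and Tex15 (-0.92) fell with them, as did Syce2 (-0.35), which had an adjusted p of 0.0628 without replicate 1 of untreated stages VII-VIII. The 2 that rose were Dmc1, the meiosis-specific strand exchange gene (1.12 ± 0.17), and Terb1, which ties telomeres to the nuclear envelope (0.69 ± 0.14). The axis genes Sycp1 (-0.28), Sycp2 (0.02), Sycp3 (0.36) and Hormad1 (-0.01) did not pass.

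Markers of pachytene spermatocytes went both ways, with 5 of 16 risen and 6 fallen (31.2% and 37.5%, against 22.5% and 20.8% of all genes; median 0.09, and -0.02 under quantile scaling); normexp called 2 higher and 1 lower. Ccna1, the cyclin of late spermatocytes needed for the first meiotic division, read 0.76 and 0.76 at stages VII-VIII and 4.52 and 4.15 at IX-XII in untreated tubules, and 1.67 and 1.93 against 4.65 and 4.73 in Venus tubules. Its IX-XII arrays lay far above the VII-VIII arrays in both arms (3.23 ± 0.17 (SE), adjusted p = 3.12e-05). Aurkc, the meiotic aurora kinase, rose by 1.62 ± 0.15 and the transcription factor gene Mybl1 by 0.94 ± 0.21, while the piRNA pathway genes Tdrd1 (-1.41 ± 0.12), Piwil1 (-0.96 ± 0.12) and Piwil2 (-0.62 ± 0.08) fell. Ldhc (0.07), Pgk2 (0.04), Hspa2 (0.11) and Ddx4 (0.30), which are abundant in spermatocytes, did not pass. Of 20 DNA replication genes, 5 rose and 8 fell (25% and 40%; median -0.20; normexp called 2 higher and 1 lower); the ribonucleotide reductase gene Rrm1 (1.04 ± 0.09) and the licensing factor Cdc6 (1.26 ± 0.16) rose, and the cyclin Ccne2 (-1.58 ± 0.17), the origin recognition gene Orc1 (-0.87 ± 0.11) and Pcna (-0.70 ± 0.11) fell.

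Genes of the acrosome, the sperm's secretory cap, gave the 4 largest falls among the members of all lists. Of 18 tested, 6 rose and 8 fell (33.3% and 44.4%, against 22.5% and 20.8% of all genes), with a median of -0.30, and normexp called 2 higher and 7 lower. Spaca1, a membrane protein of the acrosome, read 5.83 and 5.48 at stages VII-VIII and 3.01 and 1.79 at IX-XII in untreated tubules, and 5.47 and 5.54 against 0.77 and 1.08 in Venus tubules (-3.92 ± 0.35 (SE), adjusted p = 0.000178). Izumo1, which sperm need to fuse with the egg, read 2.23 and 2.20 before and -0.52 and -2.51 after the transition without virus, and 2.74 and 2.69 before and -0.86 and -0.71 after it with Venus (-3.61 ± 0.38 (SE), adjusted p = 0.000335). In both genes the IX-XII arrays were lower in each arm, with the untreated replicate 1 the nearest to VII-VIII. Sun5 (-3.14 ± 0.32), Spaca4 (-3.07 ± 0.20), Acrv1 (-3.16 ± 0.37) and the hyaluronidase gene Spam1 (-1.49 ± 0.30) fell as well, as did Acr, the acrosomal protease acrosin, by a small amount (-0.61 ± 0.09).

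Other acrosome genes moved the opposite way. The serine protease gene Prss21 read 1.61 and 1.42 (untreated) and 2.72 and 2.81 (Venus) at VII-VIII, against 3.30 and 3.12 and 4.07 and 4.04 at IX-XII (1.49 ± 0.12 (SE), adjusted p = 0.000113), with no overlap in either arm. Zpbp2, a zona-binding protein gene (1.09 ± 0.14), the acrosome formation gene Spata16 (0.72 ± 0.09) and the acrosin-binding protein gene Acrbp (0.69 ± 0.13) also rose. Gopc (-0.10) and Pick1 (0.14), trafficking genes of acrosome formation, did not pass.

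Of 21 flagellum genes, 4 rose and 6 fell (19% and 28.6%, against 22.5% and 20.8% of all genes; median -0.03, and 0.06 under median scaling and 0.04 with normexp). Quantile scaling called 2 higher and 6 lower, and normexp 0 higher and 4 lower. Cabyr, a calcium-binding protein of the fibrous sheath, read 5.37 and 5.19 at stages VII-VIII and 3.48 and 2.02 at IX-XII in untreated tubules, and 5.49 and 5.60 against 3.04 and 3.18 in Venus tubules (-2.48 ± 0.29 (SE), adjusted p = 0.000493), lower at IX-XII in each arm and lowest on the untreated replicate 2. Spag6 (-2.12 ± 0.40), a protein of the axoneme, and the tektin gene Tekt2 (-1.42 ± 0.12) fell too. Akap4, the main fibrous sheath protein (0.50 ± 0.12), Odf4 (0.48 ± 0.13), Rsph1 (0.61 ± 0.09) and Spag16 (0.30 ± 0.10) rose by less than 2-fold. With 1 array left out, Odf4 reached an adjusted p of 0.058 without replicate 2 of untreated stages VII-VIII and Spag16 of 0.104 without replicate 2 of untreated stages VII-VIII, and 2 flagellum genes were higher without either untreated VII-VIII array, without replicate 1 of Venus stages VII-VIII or without replicate 1 of Venus stages IX-XII. The outer dense fibre genes Odf1 (-0.33) and Odf2 (0.13) and the mitochondrial capsule gene Smcp (-0.03) did not pass.

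Genes of spermatid nuclear condensation, in which histones give way to transition proteins and protamines, had 3 of 14 risen and 5 fallen (21.4% and 35.7%, against 22.5% and 20.8% of all genes; median 0.20), and normexp called 1 higher and 2 lower. Tnp2, a transition protein, read 5.63 and 6.00 at stages VII-VIII and 7.01 and 6.91 at IX-XII in untreated tubules, and 6.70 and 6.51 against 7.60 and 7.53 in Venus tubules (1.05 ± 0.12 (SE), adjusted p = 0.000412), higher at IX-XII on every array of each arm. The protamine Prm1 rose by 0.68 ± 0.18 (adjusted p 0.0531 without replicate 1 of untreated stages VII-VIII). Its partner Prm2 (0.22 ± 0.13 (SE), adjusted p = 0.212) and the transition protein Tnp1 (0.19 ± 0.13 (SE), adjusted p = 0.271) did not pass; Tnp1 read 8.13 and 8.22 before and 8.15 and 8.68 after the transition without virus, and 7.95 and 7.99 before and 8.13 and 8.08 after it with Venus. The spermatid actin-like gene Actl7b (-1.84 ± 0.22) fell with Actl7a (-0.72 ± 0.10), the ubiquitin ligase gene Rnf8, which acts in histone removal (-1.03 ± 0.10), and Crem, the activator of spermatid transcription (-0.62 ± 0.10). Without replicate 1 of untreated stages IX-XII, 5 genes of the list passed as higher.

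At the apical contacts between Sertoli cells and spermatids, 7 of 23 genes rose and 3 fell (30.4% and 13%, against 22.5% and 20.8% of all genes; median 0.21). Normexp called 2 higher and 1 lower. Espn, an actin-bundling protein of the ectoplasmic specialization, read -3.95 and -4.01 at stages VII-VIII and -1.49 and -1.59 at IX-XII in untreated tubules, and -2.54 and -2.58 against -0.36 and -0.33 in Venus tubules. The arrays within a group were close, and the rise was 5.01-fold (2.32 ± 0.09 (SE), adjusted p = 1.76e-05; with normexp, adjusted p = 0.0966). Plastin 3 (Pls3, 1.68 ± 0.23), Eps8 (0.90 ± 0.16) and vinculin (Vcl, 0.42 ± 0.09), which bind actin there, rose too, with the kinase gene Fer (1.08 ± 0.11), the integrin subunit Itga6 (1.11 ± 0.22) and N-cadherin (Cdh2, 0.86 ± 0.24). Itga6, which holds elongated spermatids to the Sertoli cell, was at -4.28 and -3.55 (untreated) and -2.68 and -2.59 (Venus) at VII-VIII, against -2.26 and -2.68 and -1.99 and -1.73 at IX-XII; the arrays of an arm did not overlap.

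The genes of this list that fell were Ezr, which links actin to the membrane, at 2.39 and 2.15 before and 1.27 and 1.39 after the transition without virus, and 1.60 and 1.49 before and 0.37 and 0.40 after it with Venus (-1.05 ± 0.10 (SE), adjusted p = 0.000258), Amph, an endocytic protein of the tubulobulbar complex (-1.76 ± 0.37), and Ctnnb1, beta-catenin (-0.31 ± 0.10; adjusted p 0.118 without replicate 1 of Venus stages IX-XII). Src (-0.19), Itgb1 (0.25), Nectin2 (0.27), Nectin3 (0.21, on 7 arrays), Cdc42 (-0.07) and the laminin chain Lamc3 (0.19) did not pass. The laminin chain Lamb3 passed but overlapped in an arm (-1.22). Cdh2 had an adjusted p of 0.0599 without replicate 2 of Venus stages VII-VIII, and 2 genes of the list were lower without replicate 1 of untreated stages VII-VIII or without any 1 Venus array.

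Tight junction genes of the blood-testis barrier had 3 of 15 risen and 6 fallen (20% and 40%, against 22.5% and 20.8% of all genes; median -0.23). Ocln, the occludin gene, read -3.15 and -2.99 at stages VII-VIII and -2.80 and -2.20 at IX-XII in untreated tubules, and -3.64 and -3.88 against -2.55 and -2.56 in Venus tubules (0.89 ± 0.19 (SE), adjusted p = 0.0071), and Jam3 (0.67 ± 0.15) and Tjp1 (0.36 ± 0.11; adjusted p 0.0826 without replicate 2 of Venus stages VII-VIII) rose less. Cldn12 (-0.83 ± 0.10) and Cldn13 (-0.79 ± 0.15) fell. Cxadr, an adhesion receptor, was above background on all 4 VII-VIII arrays and on none at IX-XII, at least 1.84-fold lower (-1.50 ± 0.23 (SE), adjusted p = 0.00183). With normexp its difference was -0.40 (adjusted p = 0.979). Cldn11, the main claudin of the barrier, read 1.09 and 1.35 (untreated) and 1.33 and 1.35 (Venus) at VII-VIII, against 0.90 and 0.79 and 1.22 and 1.31 at IX-XII and did not pass (-0.23 ± 0.11 (SE), adjusted p = 0.136). With normexp no tight junction gene passed in either direction.

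Plasminogen activators, other proteases and their inhibitors gave 2 risen and 3 fallen of 17 (11.8% and 17.6%, both below the 22.5% and 20.8% of all genes), and with normexp none passed in either direction. Plat, the tissue plasminogen activator of Sertoli cells, read 0.89 and 1.26 at stages VII-VIII and -0.43 and -0.07 at IX-XII in untreated tubules, and 1.02 and 0.69 against 0.50 and 0.44 in Venus tubules, lower at IX-XII in each arm (-0.86 ± 0.22 (SE), adjusted p = 0.017; with normexp, adjusted p = 0.109). A2m, the alpha-2-macroglobulin inhibitor, was above background on 3 VII-VIII arrays and on no IX-XII array, at least 3.99-fold lower (-3.08 ± 0.33 (SE), adjusted p = 0.000365). With normexp its difference was -0.68 (adjusted p = 0.796). The protease inhibitor gene Serpina5 fell by a smaller step (-0.70 ± 0.14). Serpine2 (0.91) and Ctsk (0.64), above background on 2 arrays of each stage group, rose, but with normexp their differences were -0.12 and -0.25. Ctsl, the cathepsin that Sertoli cells secrete at stages VI-VII, passed (-0.40 ± 0.12 (SE), adjusted p = 0.0297) but overlapped in an arm, and without replicate 2 of Venus stages IX-XII its adjusted p was 0.0924. Plau, the urokinase activator, was not well above background on any of the 8 arrays and was not tested.

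Of 32 genes of lysosomes and phagocytosis, 6 rose and 9 fell (18.8% and 28.1%, against 22.5% and 20.8% of all genes; median 0.08). Gas6, the bridge between dying cells and the TAM receptors, read 1.79 and 2.01 at stages VII-VIII and 3.68 and 4.61 at IX-XII in untreated tubules, and 2.43 and 2.72 against 3.92 and 3.91 in Venus tubules. All IX-XII arrays of an arm were higher, and the rise was 1.79 ± 0.26 (SE), adjusted p = 0.00136. Of its receptors, Axl rose (0.68 ± 0.10), Tyro3 fell (-0.50 ± 0.15; adjusted p 0.0871 without replicate 2 of untreated stages VII-VIII) and Mertk did not pass (-0.04). Mfge8, another bridging protein, read 4.66 and 5.03 before and 3.05 and 3.90 after the transition without virus, and 5.46 and 5.54 before and 4.17 and 4.16 after it with Venus and fell (-1.35 ± 0.19 (SE), adjusted p = 0.00115). Rubcn, which acts in phagocytosis with autophagy proteins, rose by 0.90 ± 0.15; the lysosomal enzyme genes Gusb (-0.92 ± 0.22), Gla (-0.62 ± 0.10) and Ctsd (-0.44 ± 0.09) and the cholesterol transporter Npc1 (-0.65 ± 0.13) fell. With normexp 1 gene of the list was higher and 1 lower, and without replicate 2 of untreated or of Venus stages VII-VIII 5 were lower.

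Lipid storage and sterol genes had 8 of 26 risen and 5 fallen (30.8% and 19.2%, against 22.5% and 20.8% of all genes; median 0.28). With normexp the balance turned, at 1 higher and 3 lower. Perilipin 2 (Plin2), a coat protein of lipid droplets, read 1.96 and 1.87 at stages VII-VIII and 0.83 and 0.02 at IX-XII in untreated tubules, and 1.95 and 2.52 against -0.13 and 0.02 in Venus tubules (-1.89 ± 0.25 (SE), adjusted p = 0.000898). Its IX-XII arrays were all lower. Perilipin 5 (Plin5), of the same family, moved the other way, from -2.11 and -1.80 and -1.99 and -2.28 to -1.27 and -0.58 and -0.78 and -0.69 (1.22 ± 0.18 (SE), adjusted p = 0.00163). Soat1, which esterifies cholesterol, rose (1.52 ± 0.19), as did the fatty acid elongase Elovl2 (0.82 ± 0.10). Dgat2, the last enzyme of triglyceride synthesis (-1.40 ± 0.12), fell while Dgat1 rose (0.69 ± 0.14), and the cholesterol synthesis enzyme Cyp51 (-1.42 ± 0.23) fell.

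Of 19 genes of retinoid metabolism and its receptors, 4 rose and 2 fell. At 21.1% and 10.5% these shares were below the 22.5% and 20.8% of all genes, and normexp called 2 higher and 0 lower. Lrat, which esterifies retinol for storage, read -2.31 and -2.27 at stages VII-VIII and -4.01 and -4.39 at IX-XII in untreated tubules, and -3.00 and -2.97 against -5.16 and -5.32 in Venus tubules (-2.09 ± 0.13 (SE), adjusted p = 4.53e-05; with normexp, adjusted p = 0.599). Aldh1a3, an enzyme that makes retinoic acid, read -2.50 and -2.05 before and -0.39 and 0.64 after the transition without virus, and -2.94 and -3.29 before and -0.61 and -0.68 after it with Venus (2.43 ± 0.23 (SE), adjusted p = 0.000224). The groups were apart in each arm for both genes, in opposite directions. Rdh11, a retinal reductase, rose by 1.29 ± 0.10, Dhrs3 by 0.93 ± 0.18 and the binding protein Crabp1 by 0.89 ± 0.13, and Rdh10, which makes retinal from retinol, fell (-0.80 ± 0.15). The enzymes Aldh1a1 (-0.08) and Aldh1a2 (0.19) and the receptors Rara (-0.07) and Rxra (0.22) did not pass.

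Of 10 textbook retinoic acid targets, 1 rose (Dhrs3) and 2 fell (Stra8 and Rec8), again no more than the shares over all genes; normexp called 0 higher and 2 lower. Cyp26a1, the RA-degrading enzyme induced by RA, read -2.16 and -1.34 at stages VII-VIII and -2.19 and -2.73 at IX-XII in untreated tubules, and -1.64 and -2.60 against -1.08 and -1.28 in Venus tubules. It did not pass (0.11 ± 0.41 (SE), adjusted p = 0.841), and its measured difference was -0.71 without virus and 0.94 with Venus. Cyp26b1 (0.16) and Tgm2 (0.43) did not pass. Without replicate 1 of untreated stages IX-XII 4 targets were higher; without any 1 of the Venus arrays or replicate 1 of untreated stages VII-VIII only Dhrs3 was. Rarb was above background on 1 of the 8 arrays and was not tested. In cultured Sertoli cells, on arrays apart from these, RA against vehicle gave 3.92 for Stra8 (adjusted p = 2.99e-05) and 4.19 for Lrat (adjusted p = 0.000977) on the log2 scale; per the labels RA was given at 1 mM for 24 hours, a unit that could not be checked.

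Of 21 Sertoli cell markers, 4 rose and 3 fell, with a median of -0.01. These shares (19% and 14.3%) were below the 22.5% and 20.8% of all genes, and normexp called 1 higher and 1 lower. Rhox5, an androgen-dependent homeobox gene, read 3.90 and 3.79 at stages VII-VIII and 1.27 and 1.35 at IX-XII in untreated tubules, and 4.31 and 4.54 against 2.44 and 2.44 in Venus tubules (-2.26 ± 0.14 (SE), adjusted p = 4.52e-05), lower on all IX-XII arrays. The defensin gene Defb36 (1.27 ± 0.13), the Kit ligand Kitl (0.74 ± 0.11; with normexp, adjusted p = 0.965) and the inhibin subunit Inha (0.58 ± 0.11; 0.105) rose, and the transcription factor Gata1 fell (-0.82 ± 0.18). Sox9 (-0.27 ± 0.11 (SE), adjusted p = 0.0877), Wt1 (-0.06), Gata4 (-0.01) and Fshr (0.43) did not pass; Sox9 was lower with the mean of detected probes in place of the brightest one (-0.39, adjusted p = 0.00828) and without replicate 2 of untreated stages IX-XII (adjusted p = 0.0181). The transferrin gene Trf passed but its untreated arrays overlapped (1.34).

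Of 10 androgen-responsive Sertoli genes, 1 rose and 5 fell (10% and 50%, against 22.5% and 20.8% of all genes; median -0.72), and normexp called 1 higher and 3 lower. Besides Rhox5, which is in both lists, those that fell were the dopamine receptor Drd4, at 2.38 and 2.32 (untreated) and 3.13 and 3.19 (Venus) at VII-VIII, against 0.40 and 0.35 and 1.40 and 1.46 at IX-XII (-1.85 ± 0.09 (SE), adjusted p = 2.79e-05), the sperm-coating protease inhibitor Eppin (-0.98 ± 0.09), the protease Corin (-0.80 ± 0.15) and Tsx (-0.31 ± 0.10; adjusted p 0.133 without replicate 1 of Venus stages IX-XII). The lipid phosphatase gene Plpp1 rose (1.14 ± 0.17, on 7 arrays), and without replicate 1 of untreated stages IX-XII 2 genes of the list were higher.

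Immediate early and heat shock genes, which respond to handling as well as to signals, gave 3 risen and 4 fallen of 19 (15.8% and 21.1%, against 22.5% and 20.8% of all genes), with a median of 0.16 that was -0.12 with normexp. Dusp1, a phosphatase of MAP kinases, read 0.82 and 0.37 at stages VII-VIII and -1.82 and -1.68 at IX-XII in untreated tubules, and 0.12 and 0.30 against -1.86 and -1.90 in Venus tubules (-2.22 ± 0.13 (SE), adjusted p = 4.02e-05). Klf4, a transcription factor of Sertoli cells and spermatids, read 5.84 and 5.69 before and 4.18 and 3.93 after the transition without virus, and 6.13 and 6.19 before and 4.36 and 4.45 after it with Venus (-1.73 ± 0.10 (SE), adjusted p = 3.78e-05). Both fell in each arm with no overlap, and the inducible chaperone Hspa1a fell as well (-1.51 ± 0.18). Klf6 (0.91 ± 0.09) and the chaperone partner Dnajb1 (0.96 ± 0.12) rose, while Fos (-0.46), Jun (0.16), Egr1 (0.31) and Hsph1 (-0.01) did not pass. Without replicate 1 of untreated stages IX-XII 5 of the list were higher.

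**Figure D3:**
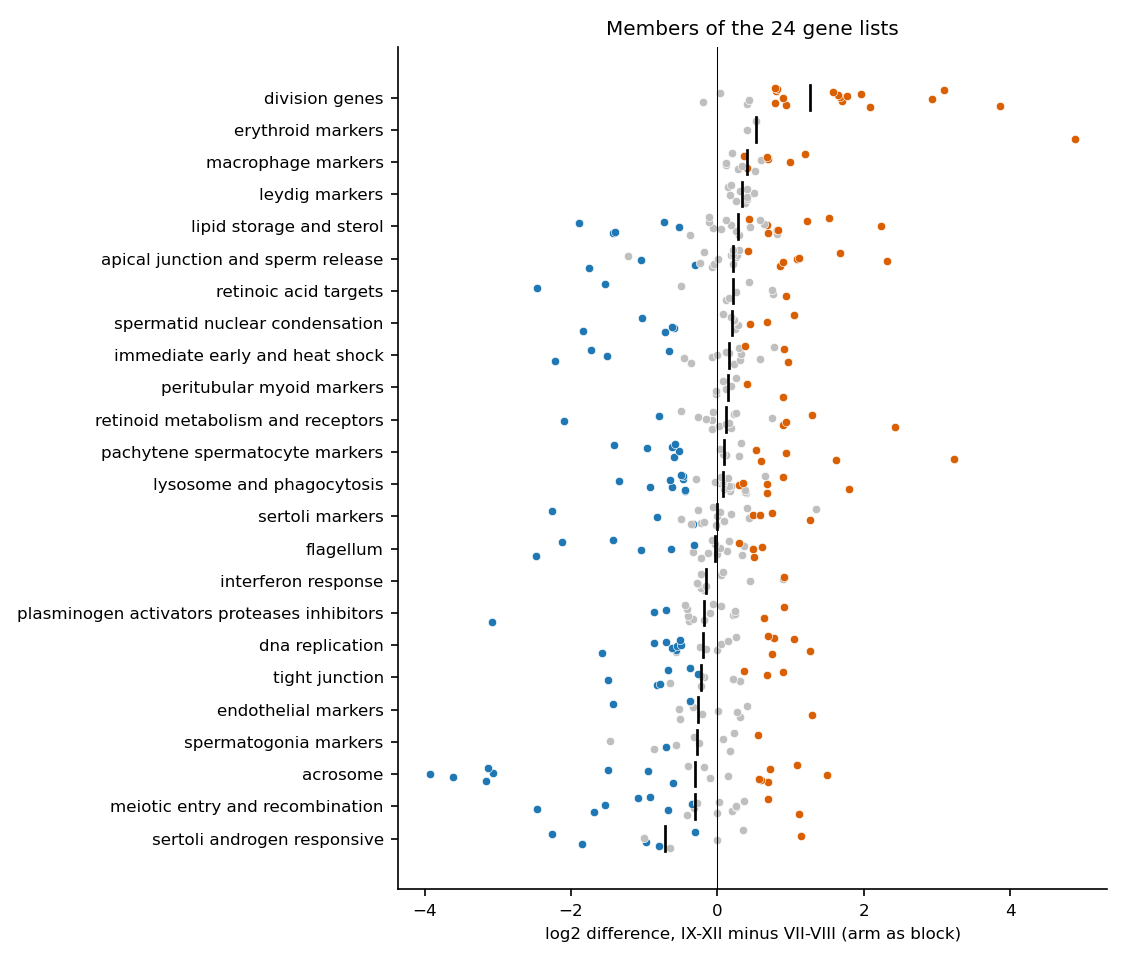
Log2 difference between stages IX-XII and VII-VIII (x axis) for each tested member of the 24 gene lists (y axis), with the median of each list as a black bar; orange members rose and blue members fell in both arms, and grey members did not. Division genes stand at the top with a median of 1.26 and no fallen member; androgen-responsive Sertoli genes are the lowest, at -0.72.

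Markers of cells outside the germ line and the Sertoli cells were checked because segments can carry interstitial tissue. Macrophage markers had 6 of 13 risen and none fallen (46.2% and 0%, against 22.5% and 20.8% of all genes), and none was lower at an unadjusted p under 0.05 by limma. On the log2 scale their summed signal in untreated tubules was 1.87 to 2.04 at VII-VIII and 2.30 to 2.68 at IX-XII; in Venus tubules it was 3.03 to 3.27 and 3.56 to 3.72. Mrc1, the mannose receptor, read -1.60 and -1.41 at stages VII-VIII and -0.61 and 0.23 at IX-XII in untreated tubules, and -1.93 and -2.32 against -1.08 and -1.02 in Venus tubules (1.20 ± 0.20 (SE), adjusted p = 0.00235; with normexp, adjusted p = 0.0862), higher at IX-XII in each arm. H2-Eb1, of the class II complex, rose by 0.67 ± 0.15. With normexp no macrophage marker passed and the list's median was 0.00. Without replicate 2 of untreated stages VII-VIII, or without any 1 Venus array, 3 were higher. The part of macrophages in the other results was not tested.

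Of 8 peritubular myoid markers 2 rose and none fell (25% and 0%, against 22.5% and 20.8% of all genes), and none was lower at an unadjusted p under 0.05 by limma. The risen ones were smooth muscle actin Acta2 (0.89 ± 0.11), and Myh11 (0.40 ± 0.12), whose adjusted p was 0.0804 without replicate 1 of Venus stages IX-XII. Without replicate 1 of untreated stages VII-VIII, or without any 1 Venus array, Acta2 was the 1 that passed. The summed signal was 4.77 to 4.84 and then 5.14 to 5.34 in untreated tubules, and 5.37 to 5.44 and then 5.70 to 5.81 in Venus tubules. None of 10 Leydig cell markers passed by limma, and none at an unadjusted p under 0.05 (median 0.34; Insl3 0.40, Star 0.18). The measured differences ran from 0.14 to 0.50, so each of the 10 was in the direction of IX-XII. Their summed signal in untreated tubules was 4.13 to 5.18 at VII-VIII and 4.62 to 5.18 at IX-XII. In Venus tubules it was 4.93 to 5.14 and then 5.47 to 5.68, with no overlap. Without replicate 2 of untreated stages VII-VIII 4 markers were higher, and with the replicate number as a block within each arm 2 were.

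Endothelial markers gave 1 rise, Egfl7 (1.29 ± 0.12), and 2 falls of 12, the angiopoietin receptor Tek (-1.43 ± 0.19; with normexp, adjusted p = 0.897) and Vwf (-0.37 ± 0.10), whose adjusted p was 0.0779 without replicate 1 of Venus stages IX-XII; 1 marker was lower without either untreated VII-VIII array, without replicate 2 of that group 2 were higher, and with the replicate number as a block 4 were lower. Of 3 erythroid markers tested Alas2 rose, and the globin Hba-a1 did not pass (0.41); without replicate 1 of untreated stages IX-XII all 3 were higher. Of 11 interferon-response genes Oasl2 rose (0.91 ± 0.22; with normexp, adjusted p = 0.399) and none fell. Of 10 spermatogonial markers Sohlh2 rose (0.55 ± 0.10; 0.682) and Id4 fell (-0.70 ± 0.10; 0.138), and without replicate 1 of untreated stages IX-XII 4 were lower. The shares risen and fallen were 8.33% and 16.7% of endothelial, 9.09% and 0% of interferon-response and 10% and 10% of spermatogonial genes. For the 3 erythroid markers they were 33.3% and 0%. Over all genes 22.5% rose and 20.8% fell. The part of these cells in the other results was not tested.

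The tubules of stages I-III and IV-VI place these changes in the cycle. In the untreated arm they lay on slides other than that of VII-VIII and IX-XII, so stage and slide cannot be told apart there. Each Venus slide held all 4 stage groups. Of the 1283 genes that rose at least 2-fold in each arm, 926 (72.2%) had their highest group mean at IX-XII in both arms and 162 (12.6%) at I-III; 900 (70.1%) were lowest at VII-VIII. Of the 1570 genes that fell as much, 941 (59.9%) were highest at VII-VIII and 309 (19.7%) at IV-VI in both arms, and 1008 (64.2%) were lowest at IX-XII. The choice of genes bars the risen ones from a peak at VII-VIII and the fallen ones from a peak at IX-XII, so these shares are a description.

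Individual genes showed several courses. Aurkb means of 2 untreated arrays were -0.39 at I-III, -1.53 at IV-VI, -3.46 at VII-VIII and 0.78 at IX-XII, a descent followed by a return above the starting value, and in the Venus arm they were -1.57 at I-III, -3.76 at VII-VIII and -0.26 at IX-XII. Plk1, at 5.80, 5.00, 1.79 and 5.54, was low at VII-VIII only. Hsf2 climbed to VII-VIII and then dropped, at -0.82, 0.89, 1.44 and -3.20. Stra8 was at 2.51 and 1.11 before VII-VIII (5.54) and at 3.59 after it, so that IX-XII still stood above the 2 earlier groups. In the Venus arm the Stra8 means were 1.55, 0.88, 4.44 and 3.32, in the same order.

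**Figure D4:**
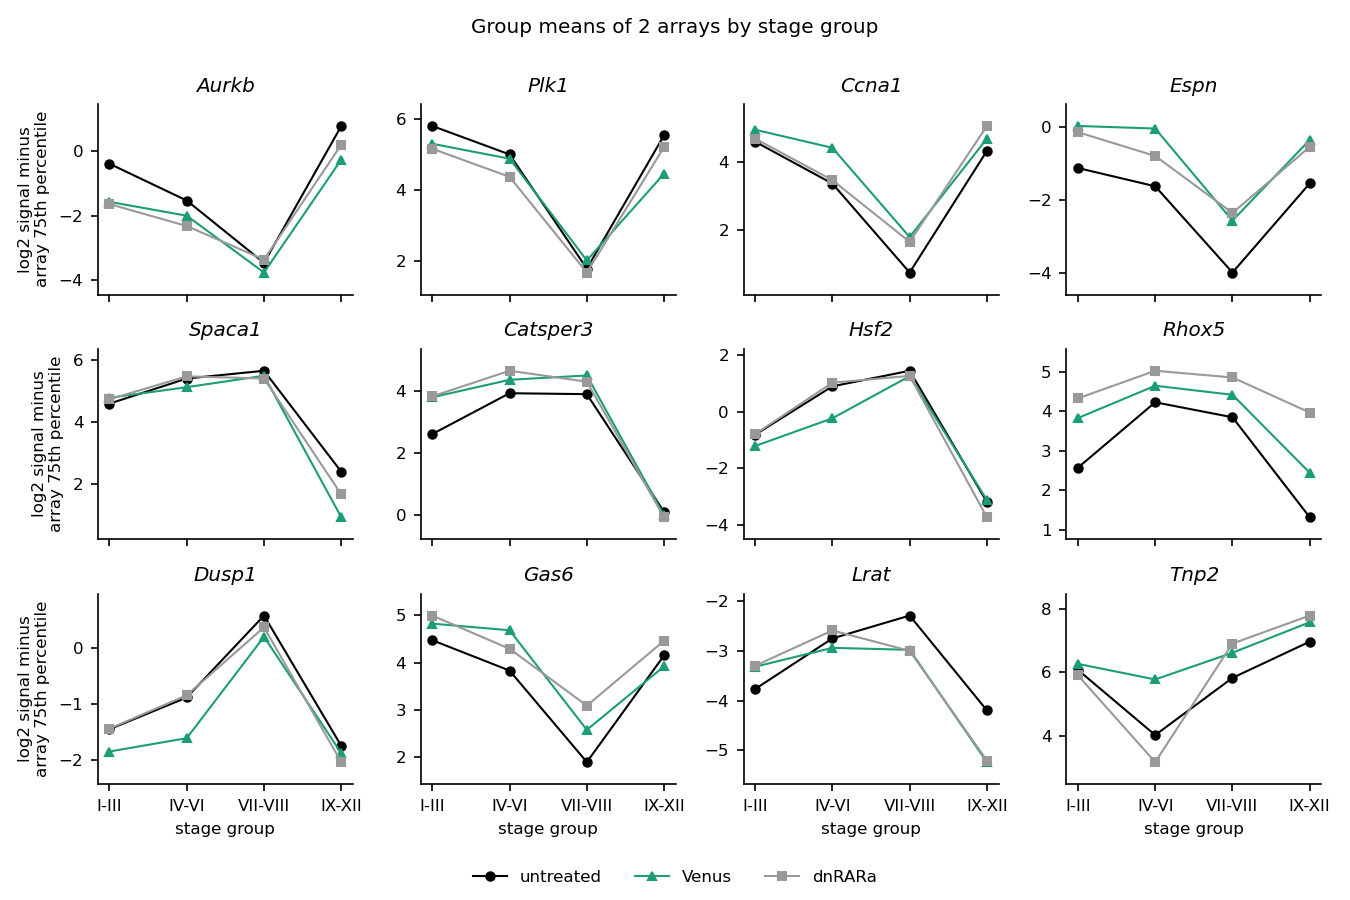
Mean log2 signal of 2 arrays relative to the array's 75th percentile (y axis) by stage group (x axis) for 12 genes in untreated (black circles), Venus (green triangles) and dnRARa (grey squares) tubules. Plk1, Espn and Gas6 have their minimum at VII-VIII in untreated and Venus tubules, at 1.79, -3.98 and 1.90 without virus, while Hsf2 and Dusp1 have their maximum there, at 1.44 and 0.59.

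The 4 dnRARa arrays of the same stage groups entered neither the fit nor the rule that chose the risen and fallen genes. They counted in picking each gene's brightest probe, and they repeated the stage difference. Both IX-XII arrays lay above both VII-VIII arrays in 1262 of the 1283 genes that rose at least 2-fold (98.4%, against 36.6% of all genes tested) and below them in 1545 of the 1570 that fell (98.4%, against 32.2%). The opposite order was found for 0 and 4 genes. The median dnRARa difference was 1.49 for the risen and -1.93 for the fallen genes. It was 5.34 for Kl, 3.54 for Gfi1, 3.56 for Aurkb, -7.15 for Asb15 and -5.00 for Hsf2, next to 5.78, 4.79, 3.86, -5.73 and -4.51 in the joint fit. Rhox5 differed by -0.90 in dnRARa tubules and by -2.54 and -1.98 in untreated and Venus tubules; the difference between these values was not tested.

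Sorted Sertoli cells gave a readout of the same genes on arrays apart from the tubules. The knockout arrays lay on a slide without any WT array, so slide and genotype cannot be told apart in that comparison. Nanos3, a gene that primordial germ cells need to survive, was above background in both WT samples (-3.21 and -4.44) and in neither knockout sample (-7.11 and -7.27). The spermatid gene Tnp1 read 7.87 and 6.99 in sorted WT cells and -3.61 and -3.75 in knockout cells, so spermatid transcripts were measured in the WT sort. Of the genes that fell at least 2-fold at the transition, 1310 were tested in the knockout comparison and 685 (52.3%) were lower in knockout cells, against 23.4% of all genes tested in both. Of the genes that rose, 355 of 1070 (33.2%) were lower. Higher in the knockout were 161 of the fallen (12.3%) and 230 of the risen genes (21.5%), against 25.9% of all.

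The median knockout difference was -0.99 for the fallen, -0.13 for the risen and 0.07 for all genes. Asb15 (-5.56, adjusted p = 8.05e-07), Izumo1 (-6.09, 1.71e-06) and Catsper3 (-4.36, 8.08e-07) were much lower in knockout cells. Among the risen genes, Gfi1 (-2.88, adjusted p = 0.000111) and Plk1 (-1.85, 1.64e-05) were lower too, while Kl was higher (3.50, 0.00331). Chdh (-0.18, 0.686) and Espn (0.24, 0.202) did not pass in that comparison.

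**Figure D5:**
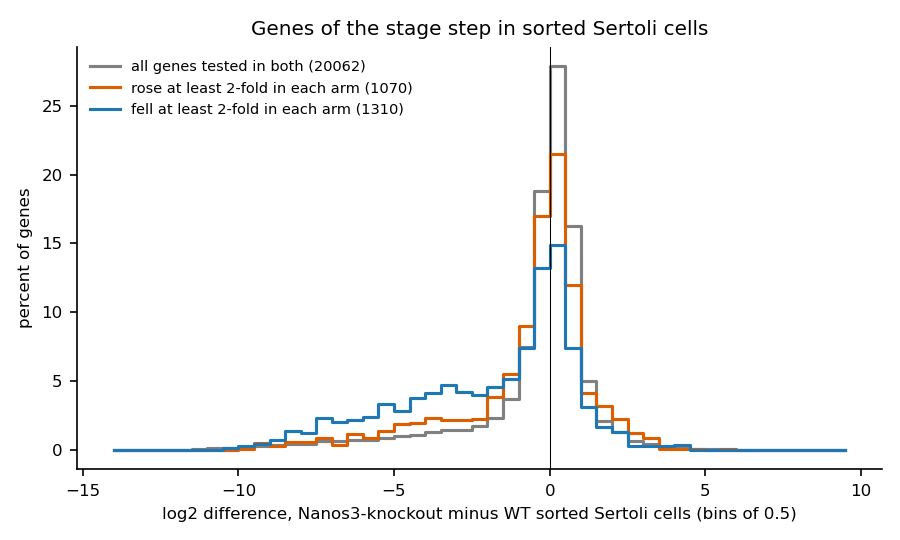
Share of genes (y axis, percent) by their log2 difference between Nanos3-knockout and WT sorted Sertoli cells (x axis, bins of 0.5) for all 20062 genes tested in both comparisons (grey), the 1070 that rose (orange) and the 1310 that fell (blue) at least 2-fold in each arm from VII-VIII to IX-XII. The blue curve has a long tail to the left and a median of -0.99; the medians of the orange and grey curves are -0.13 and 0.07.

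Against whole testes, sorted WT Sertoli cells had lower levels of 756 of 1219 risen genes (62%) and 1006 of 1515 fallen genes (66.4%), where 42.7% of all genes were lower. They had higher levels of 240 (19.7%) and 259 (17.1%), where 36.5% of all were higher. Soat1 (2.49), Gas6 (2.77) and Plin5 (4.54) were among the risen genes with more signal in sorted cells, and Mfge8 (1.68) and Dusp1 (1.95) among the fallen ones. In cultured Sertoli cells RA raised 53 of 977 risen genes (5.42%) and 37 of 986 fallen genes (3.75%), where 3.14% of all genes tested in both were higher, and lowered 20 (2.05%) and 35 (3.55%), where 1.51% were lower. No test was made of the difference between these shares.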

How the data were processed

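Expression was measured with one-colour Agilent arrays, 1 Cy3-labelled RNA sample per array. Scans were quantified by the authors in Agilent's Feature Extraction (version 9.5.3.1), per the file headers, which writes a background-subtracted, detrended processed signal; the deposited intensity of each array was used, and the deposited series values equal it (ratio 1). The other deposited columns used are 0 or 1 marks for spots well above background, saturated or outlying. The deposited values carry no scaling between arrays, and sequencing depth has no counterpart here: the number of arrays limits the precision.

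Of 45018 spots, 1639 controls were dropped and outlier spots (35 to 228 per array here) left out, giving 41174 probes. Through RefSeq, 22951 probes were named by accession and 67 by symbol; 18156 kept the deposited identifier. A gene was represented by its brightest probe over all 34 arrays (33370 names). Each deposited intensity was put on the log2 scale here, and the 75th percentile of its array was then subtracted. A gene entered the tests if, in 1 or more of the 4 groups, each array had its probe well above background (23277 genes; 116 lacked a value on an array and were fitted on the rest). limma 3.58.1 in R 4.3.3 (data.table, version 1.17.8) gave two-sided tests with Benjamini-Hochberg adjustment at 0.05: stage with arm as block on the 8 arrays (5 residual degrees of freedom), and a 4-group model (4) for each arm and their interaction. Adjusted p-values in the text, also those of sorted and cultured cells (from a joint model of those 10 arrays), come from limma. The fits were tested on simulated data.

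The comparison, the genes and the 24 lists were chosen with earlier results of these data known. Named genes are a set of 12 chosen for the cycle, the 12 largest rises and falls, up to 4 members per list with the smallest adjusted p and up to 6 of the interaction; further list members are named for their role, after their values were seen, as are Plk1, Sox17, Sox7 and Snai2. Alternatives were scaling, background correction (normexp on the deposited median spot and mean local background intensity), detection filters, probe choice, covariates, blocks and leaving out each array. No genome position was assigned to probes. Some genes that these rules name are not reported here.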

Additional observations from a re-analysis of the deposited data

Results flagged for a closer look

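The stage difference of 57 genes differed between the arms by the interaction contrast, and 27 of these have a symbol. Those described are Alas2, one of the 12 largest rises, and Anxa13, the 1 with a symbol among the genes named for the smallest adjusted p of this contrast. Alas2, the erythroid enzyme of haem synthesis, rose by 6.26 in untreated and by 3.50 in Venus tubules, a difference between arms of -2.76 (adjusted p = 0.0275). It was above background on 2 of the 4 VII-VIII arrays, at -5.32 and -5.37 in untreated and -3.32 and -3.34 in Venus tubules, and at 0.73 and 1.10 and 0.10 and 0.23 at IX-XII. Anxa13, an annexin of epithelia, was at -4.76 and -4.91 at stages VII-VIII and -6.46 and -5.83 at IX-XII in untreated tubules, and -4.92 and -5.83 against -0.64 and -0.73 in Venus tubules. Its difference was -1.31 in untreated and 4.69 in Venus tubules, 6.00 apart (adjusted p = 0.0275), and the 2 Venus arrays of stages IX-XII stood above the other 6. Virus, slide and scan day cannot be told apart in these differences between arms. Anxa13 was well above background on 3 of the VII-VIII and 2 of the IX-XII arrays, so these sizes are uncertain. With any 1 Venus array left out the interaction called at most 1 gene.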

How the results depend on the processing

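Quantile scaling, the deposited series values, the mean of detected probes, the intensity trend, the 4-group model and detection on all 8 arrays kept the joint counts within 1.5 times. With median scaling the median difference was 0.128 and 59.6% of the calls were higher, against 52% and 49.3% to 54.3% under the other settings, apart from a 2-fold minimum (44.7%). Normexp (offset 50) gave 1272 higher and 1083 lower genes (the same counts agreeing in both arms), 0 and 1 in the untreated arm, 31 and 131 in the Venus arm and 0 and 0 for the interaction, with a median of -0.123; Serpine2 (-0.12), Ctsk (-0.25) and Cx3cr1 (-0.03) changed sign. Without the arm term the counts were 2833 and 2918, agreeing 2810 and 2888. A 2-fold minimum gave 1760 and 2175, agreeing 1719 and 2097, with 1976 and 2276 untreated and 1579 and 2020 Venus. The interaction called 47 genes higher and 53 lower with quantile scaling, and 21 and 66 with median scaling. It called 0 and 1 without a detection filter, 12 and 21 with detection on all 8 arrays and 73 and 236 in the model of 24 arrays. With the replicate number as a block within each arm the joint counts were 5396 and 4795 and the interaction 0 and 0; of the named calls only Cx3cr1 was lost (adjusted p = 0.0549), while the block called 2 Leydig markers higher and 4 endothelial markers lower, against 0 and 2 without it. The deviations of same-numbered arrays correlated at 0.21 (untreated) and 0.33 (Venus) over genes, with 2 numbers per arm, and each Venus number had its own slide and scan day. With slide or scan day as block the counts were 4964 and 4651, and only Ctsl was lost (0.051). Leaving out each array gave 4373 to 6023 and 4176 to 5592 joint calls, 4366 to 6001 and 4157 to 5563 agreeing, 2248 to 6265 and 2211 to 5306 untreated, 1130 to 5500 and 1387 to 5015 Venus, and 0 to 595 and 0 to 567 for the interaction. Of 104 named calls, 58 held in every setting run. Causes were not tested, except that a 2-fold minimum asks more of each gene.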
